A study of Drosophila melanogaster with 2 samples.

Results

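Imp, Top1, Ssdp, clu and POSH, genes for regulators of RNA, DNA topology and signalling, carried some of the strongest peaks of the protein encoded by CG8388 in fly embryos. They were chosen by the deposited signal value and by function, as such regulators at 1 of the first 10 peaks of the thresholded list. That list holds 6075 peaks, and 5 of its first 10 belong to these genes. The signal value that selected them is therefore given only as a description, and no test rests on it. The last peak inside the limit was that of Ssdp, with rank 10 and a signal of 3971.7, and the first outside it was that of CG11791, with rank 11 and a signal of 3523.75.

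Occupancy was measured by ChIP-seq, in which fragments of chromatin carrying a protein are precipitated with an antibody and sequenced. Both libraries, replicates 2 and 3, came from whole Drosophila melanogaster embryos aged 0 to 14 h, with males and females pooled. The flies were a transgenic line expressing the CG8388 product with GFP at its C-terminus, and an antibody against GFP was used on sonicated chromatin. Both libraries are of 1 group and 1 line. A control alignment entered the authors' peak calling, but an untagged, mock or input library was not analysed here, so a peak that depends on CG8388 cannot be told apart from one that does not. In whole embryos, binding in a few cells and weak binding in many cannot be told apart either. Peak lists hold no read totals, so the depth is unknown. The authors deposited 4 lists on dm6: 30000 peaks for each replicate, 30000 for the pooled replicates, and the thresholded list, whose peaks passed a filter on reproducibility between replicates.

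A gene can be read from several transcription start sites (TSSs), each with its own promoter, and a promoter can also serve a pair of genes that point away from each other. Imp binds mRNAs and controls their transport and stability, and in the fly it is known for timing the fates of neural stem cells. Top1 nicks a single DNA strand to relax the supercoils that transcription and replication produce, while clu binds ribosomes and mRNAs in the cytoplasm and is needed for mitochondrial function. POSH is a scaffold and ubiquitin ligase of the JNK pathway, and Ssdp binds the LIM-domain-binding protein Chi and belongs to the complex through which Wingless signals reach their target genes.

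The summits of Imp, Top1 and Ssdp lay in sequence of very different composition, and the sequences are shown for that contrast. Each is the reference sequence from 100 bp before to 100 bp after the summit, 201 bp in all, read 5′ to 3′ along the strand of the gene from the RefSeq copy of Release 6 (dm6). In Imp, X:10823067-10823267 on the minus strand, and in Ssdp, 3R:18197256-18197456 on the minus strand, capitals mark the longest run of A and T bases within 50 bp of the summit. In Top1, X:15323309-15323509 on the plus strand, capitals mark the string CACAGTG on either strand.
Imp: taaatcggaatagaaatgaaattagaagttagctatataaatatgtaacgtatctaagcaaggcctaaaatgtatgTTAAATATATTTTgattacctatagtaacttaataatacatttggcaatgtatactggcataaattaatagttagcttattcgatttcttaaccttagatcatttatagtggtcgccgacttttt
Top1: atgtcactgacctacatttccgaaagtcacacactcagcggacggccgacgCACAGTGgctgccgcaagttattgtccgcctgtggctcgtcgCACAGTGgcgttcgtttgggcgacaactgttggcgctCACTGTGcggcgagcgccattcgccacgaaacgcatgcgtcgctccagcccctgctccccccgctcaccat
Ssdp: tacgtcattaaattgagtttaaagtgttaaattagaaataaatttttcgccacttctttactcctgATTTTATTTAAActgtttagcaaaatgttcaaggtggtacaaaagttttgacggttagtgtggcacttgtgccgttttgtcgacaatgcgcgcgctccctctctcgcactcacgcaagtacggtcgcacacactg
The Imp window is 26.9% G and C and holds an A/T run of 13 bases, whereas the Top1 window is 62.2% G and C. The Ssdp window, at 40.3%, is uneven: the 101 bp centred 60 bp upstream of the summit are 22.8% G and C and those centred 60 bp downstream are 54.5%.

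In Imp, Top1 and clu the peak lay at an internal start site, not at the most upstream one. A promoter summit was one within 500 bp of any protein-coding TSS, and 4 of the 5 genes had one: Imp, Top1, clu and POSH. Over the whole thresholded list this share was 37.0%. Summits lying inside a protein-coding gene were found for Imp, Top1, Ssdp and clu, or 4 of 5, compared with 58.3% of all thresholded summits. A nearest TSS more than 500 bp downstream of its gene's first TSS was found for 3 of 5, compared with 25.9% of all. With 5 genes, each of these counts describes these genes and does not set them apart from other peaks. Offsets from a TSS are given along the direction of transcription, so a negative value is upstream. The median size of the offset was 188 bp for the 5 genes, 215.5 bp for the first 100 peaks and 1302 bp for all thresholded peaks.

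**Figure D1:**
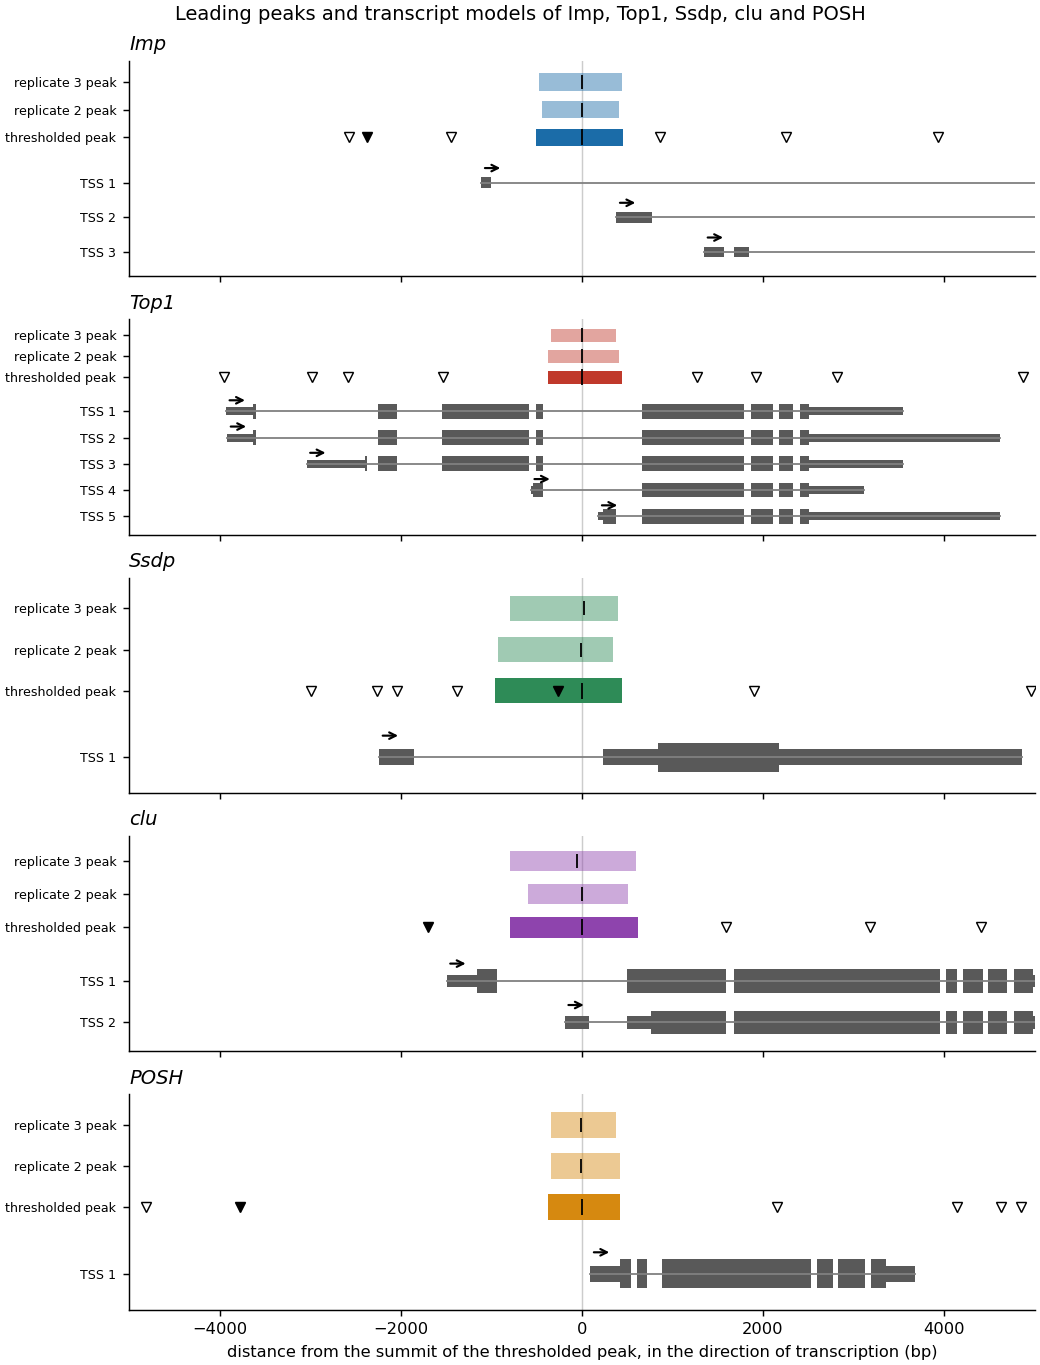
Peaks and transcript models of the 5 genes, aligned at the thresholded summit, with the distance in bp along the direction of transcription on the x axis. Coloured bars are peaks of the thresholded and replicate lists with the summit as a black tick, filled and open triangles are further thresholded and pooled summits, and boxes are exons of 1 model per TSS, taller where coding. The Imp, Top1 and clu peaks sit over TSSs 1491, 4112 and 1305 bp downstream of the first, and the Ssdp peak sits in its intron 1.

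Imp (FBgn0285926) spans 36.4 kb of the minus strand of X, from 10787869 to 10824277, with 5 distinct TSSs. Its peak ran from 10822709 to 10823676 and was 968 bp wide, and 17 of the 6075 thresholded peaks were wider. The summit at 10823167 lay at -381 bp from the TSS at 10822786, from which 2 annotated transcripts start. That TSS is 1491 bp downstream of the first one, at 10824277, so the summit is also in intron 1 of the transcript that starts there, 1110 bp from its start. The other start sites, at 10821817, 10815635 and 10806856, lay further downstream, and the summit was at -1350, -7532 and -16311 bp from them. No thresholded summit lay within 500 bp of any of those 4 TSSs. In the pooled list their best peaks had ranks of 16346 at the first TSS, 18918, 9660 and 17812. In the same order, their best ranks in either replicate list were 9847, 8367, 6605 and 7127. All were far below rank 5 at the internal TSS, which follows from the selection by signal. A noncoding gene on the opposite strand, lncRNA:CR45624, also starts near the first TSS, at 10824269.

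The Imp summit fell within 2 bp in both libraries, at 10823168 in replicate 2 and 10823166 in replicate 3. Its rank was 3 in replicate 2 and 6 in replicate 3. The replicate peaks were 844 and 918 bp wide, respectively, and both lay within the thresholded interval. In replicate 3 a second entry of the same interval had its summit at 10823370 and a rank of 885. Imp also held the most listed peaks among the 5 genes, with 2 thresholded and 25 pooled summits in its body, and with 18 and 27 in replicates 2 and 3. It is also the longest of them, and per kb of gene it had 0.687 pooled summits, compared with 0.819 for Top1, 0.704 for Ssdp, 0.520 for clu and 0.278 for POSH. The second thresholded summit inside Imp, with rank 1569, lay in an intron at 10802699, 20468 bp downstream of the leading one. Among the 1910 protein-coding genes with a thresholded summit inside, the medians were 1 thresholded summit, 4 pooled summits and 0.427 pooled summits per kb. Those genes, like these 5, were taken because of a peak.

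Top1 (FBgn0004924), the gene for DNA topoisomerase I, spans 8.55 kb of the plus strand of X, from 15319479 to 15328029, also with 5 distinct TSSs. Its peak ran from 15323034 to 15323849 and was 816 bp wide. The summit at 15323409 lay at -182 bp from the most downstream TSS, at 15323591, from which a single annotated transcript starts. That site is 4112 bp downstream of the first TSS. The summit is in intron 1 of the transcript from 15322846 and in intron 4 of the transcripts from the other three sites, at 15320369, 15319492 and 15319479. Only the TSS at 15323591 had a thresholded summit within 500 bp, although the same summit lay 563 bp downstream of the TSS at 15322846. In the pooled list, the site at 15320369 had a peak of rank 7613 and the neighbouring pair of first sites shared a peak of rank 14459. The site at 15322846 had none within 500 bp.

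Both libraries placed the Top1 summit within 1 bp, at 15323409 in replicate 2 and 15323408 in replicate 3. The rank was 5 in replicate 2 and 3 in replicate 3, so the order of Imp and Top1 was opposite in the libraries. Widths were 776 and 718 bp, respectively. The body of Top1 held 1 thresholded and 7 pooled summits. Next to Top1 lie gce, a bHLH-PAS receptor gene for juvenile hormone, with a gap of 404 bp, and dah, with a gap of 312 bp. The gce promoter had a thresholded summit of rank 5000, and the best promoter peak of dah had rank 11296 in the pooled list.

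clu (FBgn0034087) spans 7.69 kb of the plus strand of 2R, from 16186584 to 16194277, with 2 TSSs. Its peak, from 16187282 to 16188696, was 1415 bp wide, and a single thresholded peak was wider. The summit at 16188077 lay 188 bp downstream of the internal TSS at 16187889, in exon 1 of the transcript that starts there, which is 5′ UTR. Imp, Top1 and POSH had their summits upstream of the nearest TSS, so clu was the only promoter summit of the 5 on the downstream side. Seen from the first TSS, at 16186584, the summit was 1493 bp downstream in intron 1. The first TSS had a thresholded peak of its own, with rank 4282 and a summit at -209 bp, and ranks of 2768 in replicate 2 and 7707 in replicate 3. That summit was nearer to CG8441, which starts 77 bp away on the opposite strand, and lay 131 bp downstream of the CG8441 TSS.

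The clu peak had rank 7 in all 4 lists. Its summits in the libraries were 55 bp apart, the largest distance among the 5 genes, at 16188079 in replicate 2 and 16188024 in replicate 3. The replicate 3 peak was 1390 bp wide and the replicate 2 peak 1114 bp. The gene held 1 thresholded and 4 pooled summits.

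POSH (FBgn0040294) is the shortest of the 5 genes, with 3.59 kb of the plus strand of 2R from 17568732 to 17572322, and has 1 TSS. Its peak ran from 17568265 to 17569064 and was 800 bp wide, the narrowest of the 5. The summit at 17568639 lay at -93 bp from the POSH TSS. It also lay at -183 bp from the TSS of Ns2, a nucleostemin family GTPase gene transcribed the other way from 17568456, with a gap of 275 bp between the genes. The same peak thus covers both starts, and it is listed for POSH only because that TSS is nearer. The ranks were 6 in replicate 2 and 5 in replicate 3, and the summits, at 17568634 and 17568631, were 3 bp apart. The summit itself lies outside the gene, whose body held 0 thresholded and 1 pooled summit.

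Ssdp (FBgn0011481) was the exception in position. The gene spans 7.10 kb of the minus strand of 3R, from 18192494 to 18199595, and its 4 annotated transcripts share 1 TSS. The peak, from 18196911 to 18198319, was 1409 bp wide, and 2 thresholded peaks were wider. Its summit at 18197356 lay 2239 bp downstream of the TSS in intron 1. Ssdp's own promoter had no thresholded summit. Its best pooled promoter peak had rank 7170, with ranks of 7717 and 7311 in replicates 2 and 3, and its summit lay inside Ssdp, 193 bp downstream of the TSS. It was also the best pooled promoter peak of CG7985, which starts across a gap of 261 bp in the other direction.

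The wide Ssdp interval held more than 1 listed summit. A second thresholded entry with the same start and end had rank 513 and a summit at 18197617, 261 bp towards the promoter, with a signal of 727.69. Such shared intervals made up 1.56% of thresholded entries, and Ssdp alone of the 5 genes had one in that list. In replicate 2, the entries had ranks of 9 and 28 with summits at 18197365 and 18197569. In replicate 3, the ranks were 16 and 1027 and the summits 18197334 and 18197534. From the leading thresholded summit, the second summit lay at -213 bp in replicate 2, -178 bp in replicate 3 and -261 bp in the thresholded list. The second Imp entry of replicate 3 lay at a similar offset, -203 bp. Whether the peak calling sets this spacing was not tested. The rank of the second Ssdp summit was much lower in replicate 3. The leading summits were 31 bp apart. Ssdp was the only one of the 5 genes outside the first 10 peaks of a replicate, with rank 16 in replicate 3.

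**Figure D2:**
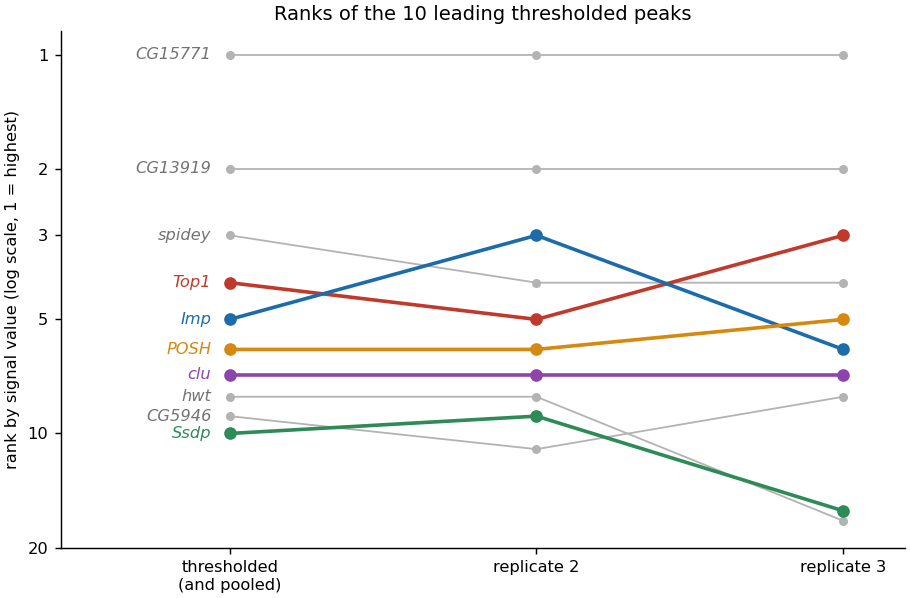
Ranks by signal value (log scale, 1 at the top) of the first 10 thresholded peaks in the thresholded and pooled lists, where they are the same, and in each replicate list, with the 5 genes in colour and the other 5 peaks in grey. The rank of clu is 7 throughout, the order of Imp and Top1 is opposite in the replicates, and Ssdp goes from rank 9 to 16.

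In each replicate list alone, Imp, Top1, clu and POSH were among the first 7 peaks. The remaining 5 of the first 10 peaks were those nearest to CG15771, CG13919, spidey, hwt and CG5946. Both replicate lists entered the thresholded list, so these ranks are not independent of the selection. The replicate summits of the 5 genes were a median of 3 bp apart, compared with 9 bp for the first 100 peaks and 25 bp for the 5927 thresholded peaks overlapped in both replicate lists. Widths had a median of 968 bp, compared with 443 bp for the first 100 peaks and 316 bp for all. Of the thresholded peaks, 2077 had a width of exactly 400 bp, so width is partly set by the peak calling, and wide peaks were also those of high signal.

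Base composition at the summit differed widely among the 5 genes. GC content within 50 bp of the summit was 24.8% for Imp, 28.7% for POSH, 37.6% for Ssdp, 41.6% for clu and 62.4% for Top1. The median over all thresholded summits was 29.7%. Imp and POSH lay in dips, with 53.5% and 53.0% in windows centred 400 bp to each side. Top1 and Ssdp went the other way, with flanks of 46.0% and 28.7%, and clu was level, with flanks of 41.1%. With flanks at 400 bp, the summit had the lower GC content for 2 of 5, compared with 83.1% of all thresholded summits. That distance was not varied, and the count depends on it. At 500 bp upstream and downstream, GC content was 48.5% and 51.5% for Ssdp and 49.5% and 45.5% for clu, above their summit values. At 22 of the 6075 thresholded summits, Top1 included, GC content was as high as at Top1 or higher, and Top1 had the highest value of the first 100. Its longest A/T run was 5 bases, compared with 17 for POSH, 13 for Imp, 12 for Ssdp, 7 for clu and a median of 10 over all summits.

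**Figure D3:**
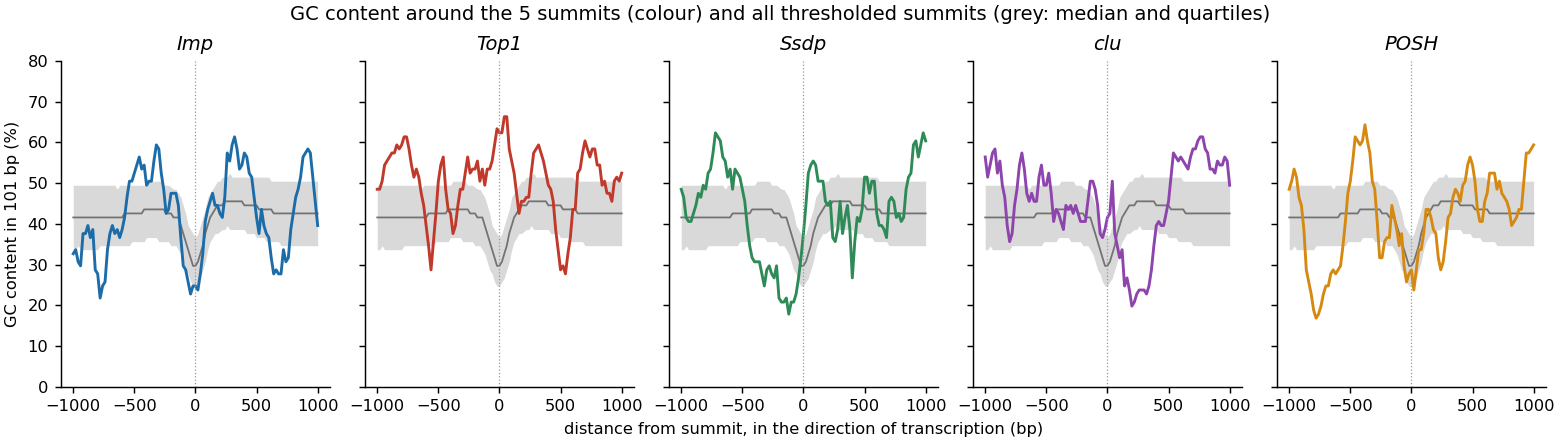
GC content (percent, in windows of 101 bp every 20 bp) from 1000 bp upstream to 1000 bp downstream of each summit along the direction of transcription, in colour, with the median and quartiles over all thresholded summits in grey. Within 500 bp, the lowest values are 40 bp upstream of the summit for Imp (22.8%) and 20 bp downstream for POSH (23.8%). For Ssdp and clu they are 120 bp upstream (17.8%) and 200 bp downstream (19.8%). Imp and POSH are lower still 780 bp upstream, at 21.8% and 16.8%. Top1 is highest 40 and 60 bp downstream (66.3%).

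For Ssdp and clu the lowest GC content lay beside the summit. Within 500 bp it was 17.8% at 120 bp upstream for Ssdp and 19.8% at 200 bp downstream for clu. These are the genes whose replicate summits differed by more than 30 bp, and the composition at the summit moved with them. At the replicate 3 summit, GC content was 46.5% for Ssdp and 36.6% for clu, compared with 36.6% and 41.6% at the replicate 2 summit.

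The string CACAGTG occurred 3 times within 100 bp of the Top1 summit, starting at -49, -7 and 30 bp from it, with the last copy on the opposite strand. It was noticed after the sequence had been read, so its frequency elsewhere is a description. Of 6075 thresholded windows of the same length, 571 (9.40%, Wilson 95% interval 8.69 to 10.2) held at least 1 match, 47 held at least 2, and 3, Top1 among them, held at least 3. Among the first 100 peaks, 19 held the string, POSH (93 bp downstream of the summit), CG5946 and CG11791 among them. The share was 4.47% for pooled summits below the threshold, 2.27% and 2.22% for windows 400 bp to the left and right of thresholded summits, and 2.52% for windows centred 100 bp upstream of the first TSS of each protein-coding gene. Imp, clu and Ssdp had 0 matches.

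Of 9 further motifs searched on both strands within 50 bp of the summits, few matched, with overlapping matches counted separately. The DNA replication-related element (DRE, TATCGATA) and its part CGATA, core promoter motif 1 and CAGGTAG were found at 0 of the 5 summits. Over all thresholded summits their shares were 0.938%, 12.9%, 0.280% and 0.477%, respectively. At clu there was 1 match to TATAAA (25.9% of all summits) and 1 to CATATG (4.02%). At POSH there were 1 match to GAGAG (7.97%), 2 matches to AAAAAA (28.9%) and 1 to ATTTAAAA (7.0%). In windows of 101 bp centred 100 bp upstream of first TSSs, the shares were 18.2% for TATAAA, 2.77% for CATATG, 13.4% for GAGAG, 23.3% for AAAAAA and 6.48% for ATTTAAAA. Promoter shares of the motifs found at 0 summits were 2.62% for DRE, 20.4% for CGATA, 0.624% for core promoter motif 1 and 0.645% for CAGGTAG. Imp, Top1 and Ssdp matched none of the 9.

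Since the 5 peaks were chosen by signal, their rank above their surroundings follows from the selection, and the further summits nearby are described here. All 5 genes had at least 1 further thresholded summit in that window, as did 91.0% of all thresholded peaks. There were 12 such summits in all, with ranks from 397 to 5872, and 8 of them were promoter summits. In addition, 67 pooled summits that did not pass the threshold lay there. The median count was 3 thresholded and 14 pooled summits per gene, compared with 3 and 15 over all thresholded peaks.

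**Figure D4:**
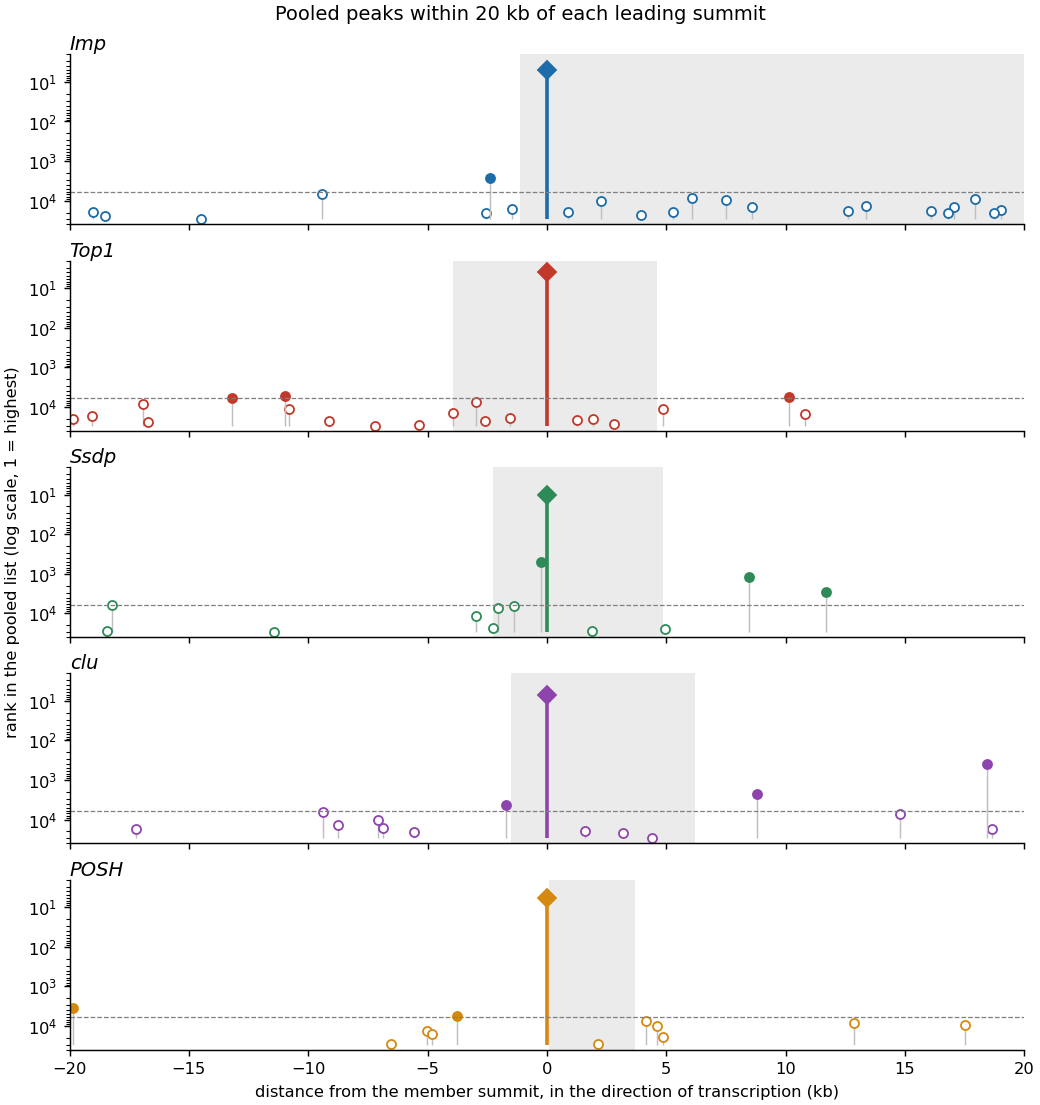
Pooled peaks within 20 kb of each leading summit, with the distance in kb along the direction of transcription on the x axis and the rank in the pooled list on a log axis. Diamonds are the leading peaks, filled circles further thresholded peaks, open circles other pooled peaks, grey areas the gene bodies and the dashed line the last thresholded rank. Apart from the second Ssdp entry and the mrj peak, with ranks of 513 and 397, all further summits have ranks above 1000.

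Around clu, the further summits were at the promoter of mrj, a DnaJ chaperone gene (rank 397, 18450 bp downstream), at that of CG42837 (rank 2203, 8783 bp downstream) and at the shared start of clu and CG8441. The CG42837 peak also lay in the promoter window of CG44242, the next protein-coding gene after clu. Around Ssdp, besides the second entry, there were promoter summits of MED17, a subunit of the Mediator complex (rank 1228, 8463 bp downstream), and of CG7208 (rank 2920, 11703 bp downstream). Top1 had 3 of low rank, with ranks of 5349, 5703 and 5872, the second of them at the promoter of HDAC6, a cytoplasmic deacetylase gene. POSH had promoter summits of CG14480 (rank 5503, 3.78 kb upstream) and MESR4 (rank 3586, 19.9 kb upstream). Imp had an intergenic summit of rank 2752, 2.37 kb upstream of the leading summit, and its neighbours sesB, the gene for a mitochondrial ADP/ATP carrier, and sbr, an mRNA export factor, had only pooled promoter peaks, with ranks of 13543 and 14023. With as many leading peaks taken from replicate 3 alone, the count was 3 for Imp, 1 for Top1 and 4 for POSH, in place of 1, 3 and 2. From replicate 2 alone it was 1, 2 and 1.

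Genes with related functions were then examined for promoter peaks. Of all protein-coding genes on the 6 arms, 20.4% had a thresholded promoter summit, at any of the gene's TSSs. Among 98 genes in 5 lists, 1 for each of the 5 regulators, 27 had one, or 27.6% (Wilson 95% interval 19.7 to 37.1, counting error only). The intervals of the single lists all include the share over all genes except that of the mRNA-binding regulators, whose lower limit lies just above it. The list sizes are small and the lists were put together with earlier results of these data known, so no list is set apart by these counts.

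Of 21 mRNA-binding regulators, the list that goes with Imp, 8 had a thresholded promoter summit (38.1%, 20.8 to 59.1). The strongest was at msi, a translational repressor in neural and sensory precursor cells, with rank 62. It was followed by shep (rank 93), elav, a neuronal splicing regulator (rank 145), orb, which acts on oocyte mRNAs (rank 495), and orb2 (rank 2663). The summits of these 5 lay from -196 to -282 bp from the nearest TSS of the gene. Within 250 bp of a TSS the count was 5, where the share over all protein-coding genes was 15.9%, and within 1000 bp it was 14, where that share was 24.1%. Without replicate 2 the count was 10, with a share over all genes of 21.3%. Without replicate 3 it was also 10, with a share of 20.3%.

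**Figure D5:**
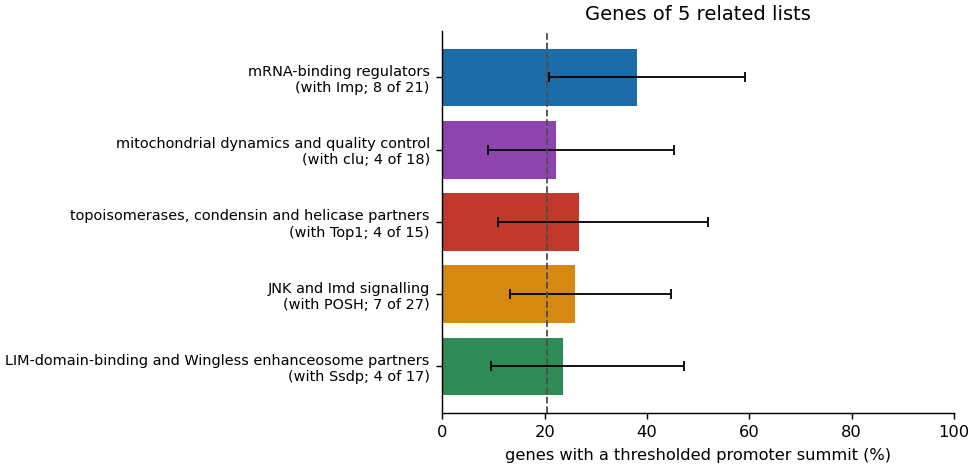
Percent of the genes of each list with a thresholded promoter summit at any TSS (500 bp window), as bars starting at 0, with Wilson 95% intervals that cover counting error only. The dashed line is the share over all protein-coding genes, 20.4%, and the bars range from 22.2% to 38.1%.

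Among 27 genes of JNK and Imd signalling, the pathways in which POSH acts, 7 had a thresholded promoter summit (25.9%, 13.2 to 44.7). Mkk4, a kinase that activates JNK, led with rank 108, and imd, the adaptor of the Imd pathway, had rank 228. The adaptors Traf6 and Traf4 had ranks of 1289 and 1695, and Rel, the NF-kappaB factor of the Imd pathway, had rank 1906. Of 15 topoisomerases, condensin subunits and partners, 4 had one (26.7%, 10.9 to 52.0). These were dre4, a subunit of the histone chaperone FACT (rank 1932), and the condensin subunits Cap-D2, barr and SMC2 (ranks 2291, 2315 and 2580).

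Of 17 LIM-domain-binding and Wingless partners of Ssdp, 4 had a thresholded promoter summit (23.5%, 9.56 to 47.3). They were sgg, a kinase of the beta-catenin destruction complex (rank 247), brm, the ATPase of a chromatin remodeller (rank 377), Apc2, a scaffold of the destruction complex (rank 2689), and ap, a LIM-homeodomain factor (rank 5194). With the leading peaks of replicate 3 alone the count was 7, and the share over all protein-coding genes was then 21.3%. Of 18 genes for mitochondrial dynamics and quality control, listed with clu, 4 had one (22.2%, 9.0 to 45.2), with ranks of 2039 for Miro, a mitochondrial transport GTPase, 2246 for Sod2, a superoxide dismutase, 5175 for Hsp60A, a chaperone, and 6066 for ATPsynbeta, a subunit of the ATP synthase. The best rank in the lists that go with Top1 and clu was thus 1932, while those of Imp, POSH and Ssdp had members within the first 250 peaks. The lists differ in size, and no share of all protein-coding genes at that cutoff is given. This contrast therefore does not set the lists apart.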

How the data were processed

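The 4 narrowPeak lists are the authors' deposited files on dm6, called per replicate or on the pooled replicates with a control alignment, per the notes deposited with the files. Which aligner, caller and reproducibility threshold were used is not given in the sources used here. Signal values are a deposited score of the authors with no stated scale, and they served for ranking within 1 list at a time. The summit is the deposited start plus the deposited offset (the other unit used), written 1-based.

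Ensembl release 115 gave the gene models, and RefSeq's Release 6 genome gave the sequence. Of 17682 genes matched by symbol between their gene tables, 17680 had identical ends, the 5 genes among them, and 0 peaks ran past a chromosome end. The replicate peak of a gene is the overlapping peak of highest signal in that list. Intervals are Wilson 95% intervals for counting error only, since the depth is unknown. With 1 group and no control library analysed, no test was made. The labels call the libraries biological replicates.

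Named were the 5 genes, genes starting within 2 kb of their summits, the adjacent genes, the other first 10 peaks and rank 11, and up to 5 genes per list by signal. Genes at the further summits within 20 kb and lncRNA:CR45624 were named after their values were seen. The genes, lists and motifs were chosen with earlier results of these data known, and CACAGTG and the A/T runs were examined after the sequences had been read. Of 99 listed genes, 1 was not analysed here. Functions for the distance to the nearest TSS, overlap, counts within 20 kb and GC content were tested on simulated data. Alternatives varied the promoter and neighbour windows, the summit, the annotation and the replicate. Python 3.11.15, numpy 2.4.6, pandas 2.3.3, scipy 1.17.1 and matplotlib 3.10.9 were used.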

Additional observations from a re-analysis of the deposited data

How the results depend on the processing

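The count of 4 promoter summits was 3 within 250 bp of a TSS, where Imp no longer counted, and 4 within 1000 bp, from peak midpoints and from either replicate alone. The share over all thresholded summits, 37.0%, belongs to the 500 bp window only, so these other counts have no share beside them. The median distance to the nearest TSS was 188 bp, 149 bp from peak midpoints, and from 183 to 190 bp when 1 replicate was left out. RefSeq start sites gave the same distance for each of the 5 genes. The further thresholded summits numbered 12 within 20 kb, 6 within 10 kb and 28 within 40 kb, and from 10 to 15 when 1 replicate was left out. The median GC content was 37.6% within 50 bp of the summit, 39.8% within 100 bp, 35.3% within 25 bp, and 36.6% at the summits of either replicate alone. The count of 27 listed genes ranged from 21 to 40 with the window (250 and 1000 bp) while the share over all genes went from 15.9% to 24.1%, and it was 34 and 31 without replicates 2 and 3, with shares over all genes of 21.3% and 20.3%. For none of the 5 genes did the signed distance to the nearest TSS change sign in these settings. The flank distance of 400 bp used for GC content was not varied. Ranks could be compared only within a list, and unknown depth limits what the absence of a lower-ranked peak shows. No paired analysis was possible because both libraries belong to a single group.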
